A study of Mus musculus with 8 samples.

Results

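The interferon response and RNA sensing genes described here are 41 named mouse genes: interferon-stimulated genes, sensors of double-stranded RNA and genes of antigen presentation. They were chosen by gene name, by function, from a deposited expression table of 78317 genes, and each of the 41 had exactly 1 row. The table comes from the cochlear basilar membrane, the strip of the inner ear on which hair cells and supporting cells sit, of mice at postnatal day 6. It holds 4 libraries titled hete, whose genotype tag reads WT, and 4 libraries titled homo, whose tag reads Dnajc17 cKO, a conditional knockout of the J-domain protein gene Dnajc17. Both groups are of the same tissue and age, and no treatment is given for either. Whether the hete animals carry a mutant allele is not stated by title or tag. The sources used here do not give the driver of the deletion, the deleted exons, the strain, or whether a library is 1 animal or a pool. The p-values therefore reflect only how much these libraries vary, part of which may be technical.

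Cells that detect viral or misplaced RNA produce interferons, which act on neighbouring cells through receptors that activate a complex of transcription factors, among them STAT2 and IRF9. This complex binds a short DNA sequence, the interferon-stimulated response element, and turns on a large set of antiviral genes. RNA sensors of the cytoplasm, among them MDA5 (encoded by Ifih1), signal through the adaptor MAVS, while ADAR edits the cell's own double-stranded RNA and so keeps it from being sensed. Many of these genes are also transcribed at a low level in tissue without infection. Setting homo against hete compares their levels between the labelled groups.

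Dnajc17 had 26.51, 25.45, 25.09 and 22.06 TPM in hete and 29.33, 27.65, 31.08 and 18.04 TPM in homo. Homo replicates 1, 2 and 3 lay above every hete library and homo replicate 4 lay below them (log2 fold change 0.07 with SE 0.15, adjusted p = 0.969 by limma-trend; -0.01 without homo replicate 3). The level of the targeted gene therefore does not show the deletion, and homo is used below as the label of these libraries. A gene-level value of whole tissue does not check whether an exon was lost in some cells.

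The libraries also differed in genes linked to sex, which the labels used here do not give. Xist, the RNA that silences an X chromosome in females, had 172.22, 74.39, 168.05 and 93.1 TPM in hete and 167.04, 0.13, 162.77 and 85.01 TPM in homo. Ddx3y, a Y-linked RNA helicase gene, had 0, 15.93, 0 and 19.88 TPM in hete and 0, 35.77, 0 and 20.03 TPM in homo. Homo replicate 2 was thus the lowest library for Xist and the highest for Ddx3y, as it was for the Y-linked Eif2s3y, Kdm5d and Uty. Replicates 1 and 3 of both groups had high Xist and no Y-linked gene of these 4 above 1 TPM, while hete replicates 2 and 4 and homo replicate 4 had both Xist and Y-linked genes at levels between. Homo replicate 2 stands apart in the results that follow, and the part of sex in them cannot be told apart from that of this library, since no other library had its Xist level.

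The response element can be read directly in the promoters of many members. The 9 promoters shown all hold a match before the annotated start. Other members with such a match, among them Gbp2 and Gbp3, are not printed. Promoter windows from RefSeq on GRCm38.p6 run from 250 bases before to 50 bases after the annotated start and matched 32 of the 41 members by symbol; Ifi27, Mx1, Mx2, Oas2, Parp14, Parp9, Rtp4, Usp18 and Zbp1 had no entry. The expression values were made on GRCm39, and the windows are used for their sequence only. Each is printed 5′ to 3′ in the direction of the gene, with every match to the element in capitals. A match here is GAAA, any 2 bases and GAAA again, on either strand; on the other strand it reads TTTC, any 2 bases and TTTC, and a longer run of capitals is a chain of overlapping matches.
Isg15 (chr4:156200850-156200921, minus strand): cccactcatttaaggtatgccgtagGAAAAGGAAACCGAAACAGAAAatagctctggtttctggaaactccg
Ifit1 (chr19:34640760-34640838, plus strand): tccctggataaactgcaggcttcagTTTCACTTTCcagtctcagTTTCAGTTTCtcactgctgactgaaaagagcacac
Ifit3 (chr19:34583348-34583441, plus strand): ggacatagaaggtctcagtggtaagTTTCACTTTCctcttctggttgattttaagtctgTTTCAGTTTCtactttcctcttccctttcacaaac
Rsad2 (chr12:26456538-26456597, minus strand): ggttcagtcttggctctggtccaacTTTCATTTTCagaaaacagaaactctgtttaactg
Bst2 (chr8:71537562-71537627, minus strand): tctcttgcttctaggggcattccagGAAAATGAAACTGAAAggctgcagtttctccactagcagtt
Oas1a (chr5:120907526-120907570, minus strand): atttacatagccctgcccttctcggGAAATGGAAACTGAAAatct
Oas3 (chr5:120777700-120777759, minus strand): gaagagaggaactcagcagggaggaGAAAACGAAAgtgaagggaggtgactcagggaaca
Stat2 (chr10:128270251-128270310, plus strand): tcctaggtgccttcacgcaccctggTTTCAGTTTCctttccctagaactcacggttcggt
B2m (chr2:122147523-122147582, plus strand): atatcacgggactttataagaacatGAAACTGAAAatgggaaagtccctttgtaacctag

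Isg15 holds 3 overlapping matches within 80 bases of its start, and Ifit1 and Ifit3 each hold 2 separate matches on the other strand. The element was found in 17 of the 39 promoter windows of members, or 43.6%, and in 1131 of all 32851 windows, or 3.44%. A stricter form, in which the first of the 2 middle bases is C and whose matches are a subset of these, was found in 11 member windows (28.2%) and in 0.685% of all windows. These patterns and the printed windows were chosen after the data were seen; 4 patterns were searched in all, and the other two are not named here. The members were chosen by function, so these shares describe the list and carry no test. A match is a run of letters and not a measured binding site.

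**Figure D1:**
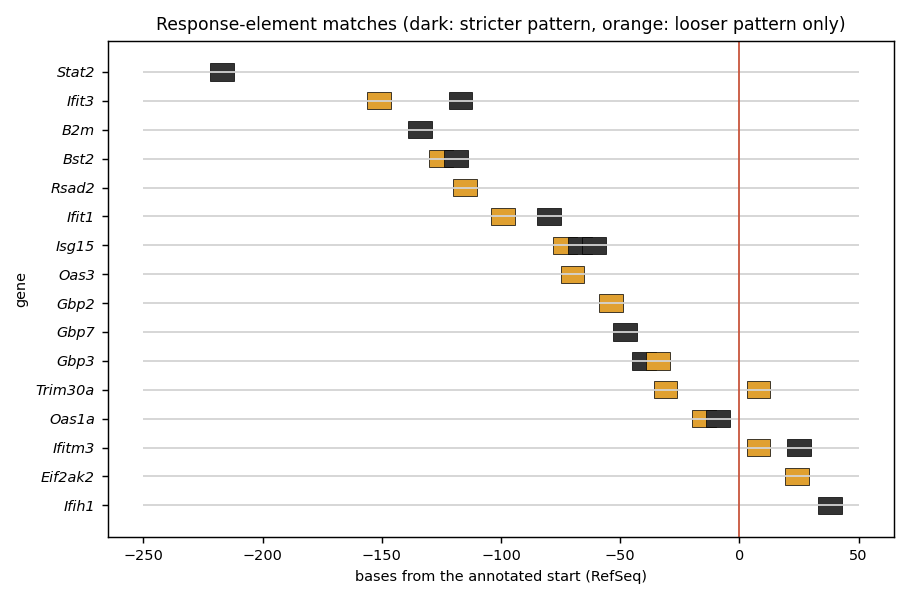
Position of each response-element match in the promoter windows of the 16 members that hold one, in bases from the annotated RefSeq start (red line); each bar is 1 match of 10 bases, dark for the stricter pattern and orange for the looser pattern only. Matches of Isg15 begin 78, 72 and 66 bases before the start, while those of Ifitm3, Eif2ak2 and Ifih1 lie after it.

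In this tissue most members stood at low levels, on the scale of TPM (transcripts per 1000000, scaled by transcript length). Means over the 8 libraries ran from 0.114 TPM for Oas3 to 645 TPM for B2m, the invariant chain of class I antigen-presenting molecules. Only Ifi27 (255 TPM), the membrane protein gene Ifitm3 (143 TPM) and Bst2 (50.9 TPM), which tethers budding virus to the cell, came next above 50 TPM. Below them, the adaptor Mavs stood at 31.0 TPM, Irf9 at 28.1 TPM and Adar at 21.7 TPM. Isg15 stood at 7.88 TPM, Irf7 at 4.91 TPM, the sensor gene Ifih1 at 4.53 TPM and Ifit1 at 2.55 TPM. Of the 41 members, 37 had a mean of at least 1 TPM and were tested. Oas3, Oasl1, Mx1 and Rsad2 did not reach it and are described separately.

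No member passed the test between homo and hete. In limma-trend on log2(TPM + 1), fitted over 17811 genes, 0 of the 37 tested members had an adjusted p under 0.05, where 0.0112% of all tested genes did; the smallest adjusted p of a member was 0.551. At an unadjusted p under 0.05, 2 members stood higher in homo, Ifitm3 and Oasl2, or 5.41% of them, where 3.56% of all tested genes stood higher. At the same unadjusted p, 0 members stood lower, where 2.49% of all tested genes did. The groups did not overlap for 1 tested member, Ifitm3, which had all homo values above all hete values, as did 2.58% of tested genes; 0 members had all homo values below, as did 1.41%. These shares lie near those of all genes. In bulk tissue, more cells of a type and more RNA per cell cannot be told apart, here and in all values that follow. The direction leaned higher: 28 of 37 members had a log2 fold change above 0, or 75.7%, where 56.3% of all tested genes did. The median log2 fold change of the members was 0.09, beside 0.02 over all tested genes. Without homo replicate 2 it was 0.04, beside 0.02 over all tested genes. Among the 4 libraries without Y-linked expression, replicates 1 and 3 of each group, it was 0.09, beside 0.06 over all tested genes. These medians have no test.

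**Figure D2:**
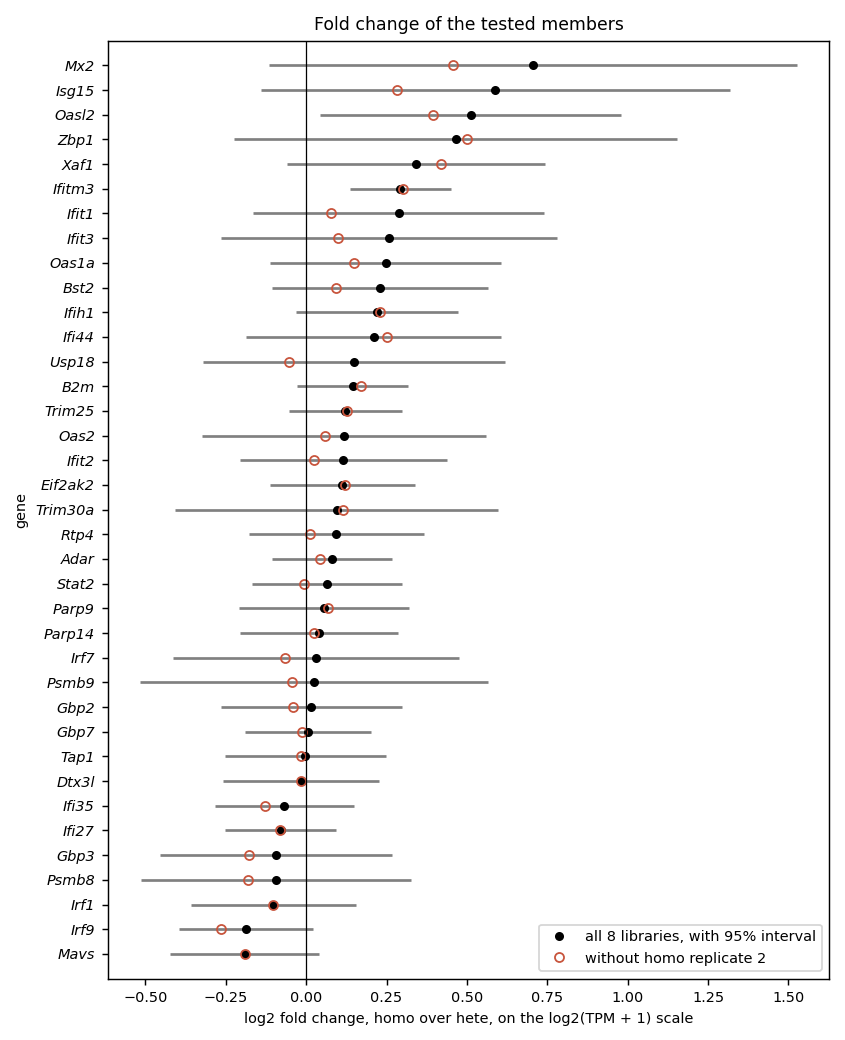
Difference of homo minus hete in log2(TPM + 1) for the 37 tested members (black points, with 95% intervals from limma-trend) and the same without homo replicate 2 (open red circles). Intervals of all members but Ifitm3 and Oasl2 include 0, and Isg15 moves from 0.59 to 0.28 when that library is left out.

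A single library stood highest for many members. Homo replicate 2 held the highest value of the 8 libraries for 15 of the 37 tested members, or 40.5%, while it did so for 8.02% of all tested genes. Homo replicates 1, 3 and 4 were highest for 5, 1 and 4 members, beside 18.7%, 14% and 10.3% of all tested genes. Hete replicates 1 to 4 were highest for 1, 3, 4 and 2 members, beside 7.09%, 7.46%, 11.7% and 22.3% of all tested genes. The member score, the mean over the 37 members of log2(TPM + 1) minus the gene's mean over the 8 libraries, was -0.08, 0.01, -0.09 and -0.10 in hete replicates 1 to 4. In homo replicates 1 to 4 it was 0.09, 0.24, -0.0050 and -0.06. Homo replicates 1 and 2 lay above all hete libraries, and homo replicates 3 and 4 lay within their range. The homo mean exceeded the hete mean by 0.13, by 0.07 without homo replicate 2, and by 0.13 among the libraries without Y-linked expression. In that last comparison Zbp1 had the largest log2 difference of the members, at 1.11. The median over all tested genes was also higher there than in the fit of all 8 libraries, as given above. Homo replicate 2 exceeded the mean of the other 3 homo libraries for 26 of 37 members, or 70.3%. Over all tested genes that share was 42.8%. The median difference was 0.22 on the log2(TPM + 1) scale for the members and -0.03 over all tested genes. Among lists of cell type markers, the share ran from 0% of 4 granulocyte markers to 84.6% of 13 hair cell markers. For 17 macrophage markers it was 70.6%.

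**Figure D3:**
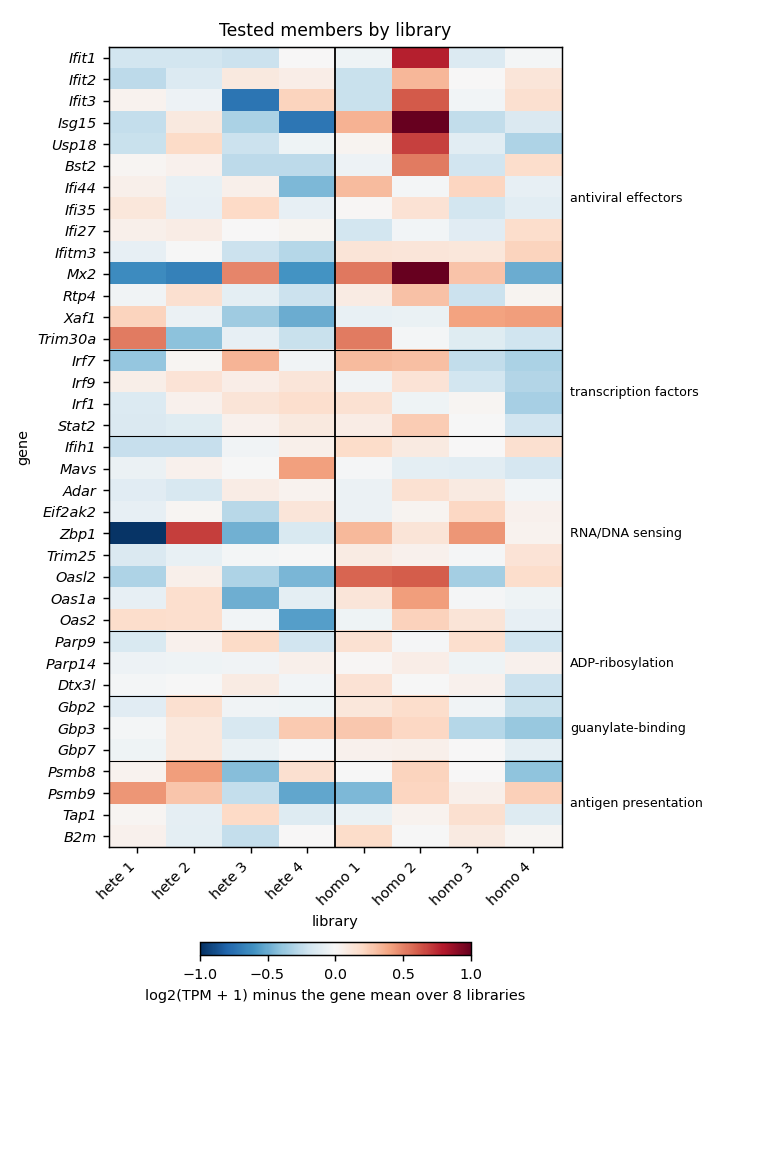
Log2(TPM + 1) of each tested member minus its mean over the 8 libraries, by library and role (red above the mean, blue below; colours end at 1 and -1). Homo replicate 2 is the reddest column among the antiviral effectors, led by Isg15, Mx2, Ifit1 and Usp18, while the guanylate-binding and ADP-ribosylation rows are pale throughout.

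The antiviral effectors, 16 members of which 14 were tested, made up 8 of the 15 members that were highest in homo replicate 2. Their score was 0.40 there and 0.08, -0.02 and -0.0041 in the other homo libraries, against -0.22 to -0.05 in hete. Isg15, a ubiquitin-like protein that is attached to other proteins during the interferon response, stood, in the order of the replicates, at 5.93, 7.76, 5.59 and 3.96 TPM in hete and at 9.44, 18, 5.9 and 6.42 TPM in homo. Homo replicates 1 and 2 lay above every hete library and homo replicates 3 and 4 lay among them. Its log2 fold change was 0.59 (with SE 0.32 and adjusted p = 0.870 by limma-trend), and 0.28 without homo replicate 2. Usp18, the protease that removes ISG15 and dampens the receptor, had 2.75, 4.01, 2.77 and 3.25 TPM in hete and 3.47, 6.05, 3.08 and 2.54 TPM in homo. Only homo replicate 2 lay above the hete range, and the log2 fold change went from 0.15 to -0.05 without it.

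Ifit1, Ifit2 and Ifit3 are of a family in which IFIT1 binds foreign RNA and blocks its translation. These 3 genes are named with Usp18 and Bst2 after their values were seen. Ifit1 had 2.05, 2.05, 1.99 and 2.47 TPM in hete and 2.37, 4.92, 2.15 and 2.41 TPM in homo (log2 fold change 0.29, 0.08 without homo replicate 2). For Ifit2 the values were 3.95, 4.37, 5.35 and 5.2 TPM in hete and 4.06, 6.45, 4.93 and 5.44 TPM in homo. Ifit3 had 13.39, 12.59, 7.49 and 15.42 TPM in hete and 11.03, 20.44, 12.81 and 14.66 TPM in homo (log2 fold change 0.26, 0.10 without homo replicate 2). In all 3 genes homo replicate 2 was highest and the remaining homo libraries fell within or close to the hete values. The transcript of Ifit3 matches that of Ifit3b with 97.8% identity over 1700 bases, so reads of these genes may not be separable. Bst2 followed with 50.95, 51.69, 41.57 and 41.63 TPM in hete and 48.35, 72.45, 43.73 and 56.89 TPM in homo, where homo replicates 2 and 4 lay above all hete libraries (log2 fold change 0.23, 0.09 without homo replicate 2).

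Mx2, an interferon-induced dynamin-like GTPase, had 0.89, 0.83, 3.1 and 0.93 TPM in hete and 3.2, 5.25, 2.55 and 1.07 TPM in homo (log2 fold change 0.70 with SE 0.37; adjusted p = 0.870 by limma-trend). It was the largest log2 fold change among tested members, yet hete replicate 3 lay above homo replicates 3 and 4. Without homo replicate 2 it was 0.46, and without hete replicate 3 it was 0.98. Its relative Mx1, below the filter, had 1.52, 0.83, 0.38 and 0.35 TPM in hete and 0.49, 2.31, 0.6 and 0.55 TPM in homo. Mx2 matches a transcript of Mx1 with 95.3% identity over 843 bases. Both genes were highest in homo replicate 2, and hete replicate 1 was the second highest for Mx1.

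Ifitm3, which keeps viruses from fusing with the cell's membranes, showed another pattern. It had 134.02, 141.48, 122.31 and 116.44 TPM in hete and 155.11, 154.31, 153.86 and 165.91 TPM in homo. All 4 homo libraries lay above all 4 hete libraries, and homo replicate 2 was not the highest. Homo exceeded hete by 0.29 in log2 (SE 0.07, with a 95% interval of 0.14 to 0.45; unadjusted p = 0.00203, adjusted p = 0.551 over all genes tested by limma-trend), and 0.30 without homo replicate 2. Across the filters, scalings, pseudocounts, block and left-out libraries its adjusted p ran from 0.411 to 0.893.

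The remaining antiviral effectors varied without a common direction. Xaf1, a pro-apoptotic gene induced by interferon, had 15.53, 12.56, 10.05 and 9.02 TPM in hete and 12.43, 12.52, 17.65 and 17.89 TPM in homo, so its 2 highest libraries were homo replicates 3 and 4 and not replicate 2 (log2 fold change 0.34 with SE 0.18; adjusted p = 0.870 by limma-trend). Ifi27, a mitochondrial protein gene and the most abundant effector, had 263.67, 266.99, 254.51 and 259.25 TPM in hete and 223.52, 248.73, 234.12 and 286.37 TPM in homo. Homo spread over a wider range than hete on both sides, with a log2 fold change of -0.08 (SE 0.08). Ifi44 (0.21), Trim30a (0.09), Rtp4 (0.09) and Ifi35 (-0.07) overlapped between the groups. Rtp4 contains 296 bases found in the antisense transcript Gm45338.

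**Figure D4:**
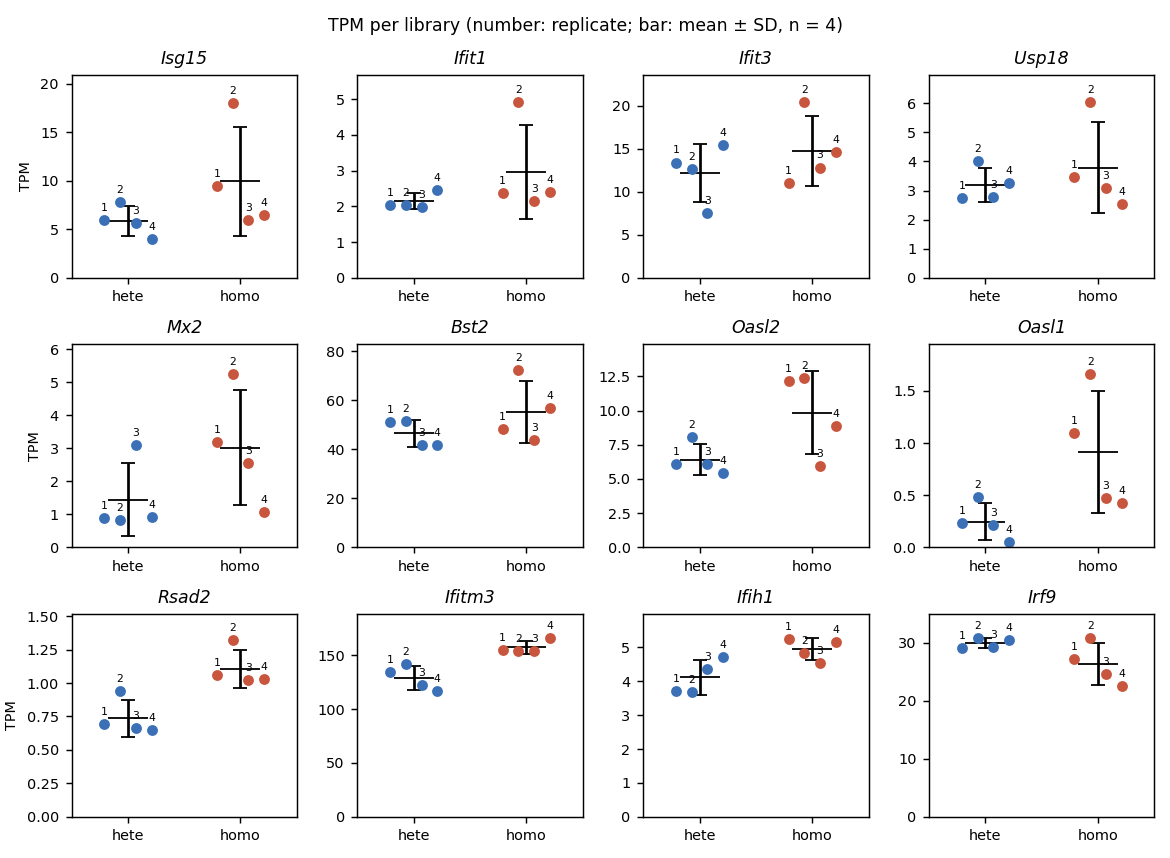
TPM of 12 members in each of the 4 hete (blue) and 4 homo (red) libraries, numbered by replicate, with mean ± SD as bars; axes start at 0. Homo replicate 2 stands apart for Isg15, Ifit1, Usp18 and Mx2, whereas for Ifitm3 and Rsad2 all homo libraries lie above all hete libraries.

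The 4 transcription factors that carry the interferon signal had log2 fold changes of both signs. Irf9, the DNA-binding subunit of the complex with STAT2, had 29.12, 30.89, 29.31 and 30.51 TPM in hete and 27.24, 30.89, 24.59 and 22.63 TPM in homo. Homo replicates 1, 3 and 4 lay below every hete library and homo replicate 2 equalled the highest one (log2 fold change -0.19 with SE 0.09; adjusted p = 0.864 by limma-trend). Leaving out homo replicate 2, its highest homo library, gave -0.27, with an unadjusted p of 0.0112 and an adjusted p of 0.875 by limma-trend. Leaving out homo replicate 4, its lowest library, gave -0.12. Irf7, the factor that amplifies interferon production, had 3.43, 4.89, 6.32 and 4.67 TPM in hete and 6.23, 6.15, 3.9 and 3.65 TPM in homo (log2 fold change 0.03, SE 0.20). Its homo libraries split, with replicates 1 and 2 high and replicates 3 and 4 low, inside the hete range. Stat2 had 16.1, 16.41, 18.46 and 19.19 TPM in hete and 18.92, 21.53, 17.82 and 15.6 TPM in homo (0.07, SE 0.10), again with homo replicate 2 highest. Irf1, which answers mainly to interferon gamma, stood at 15.4 ± 1.49 TPM in hete and 14.3 ± 2.08 TPM in homo (SD, n = 4 per group; log2 fold change -0.10, SE 0.12).

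Among the RNA and nucleic acid sensing genes, 11 members of which 9 were tested, 8 had a log2 fold change above 0. Oasl2, of the oligoadenylate synthetase family whose enzymes are switched on by double-stranded RNA, gave the largest of them. It had 6.09, 8.07, 6.09 and 5.41 TPM in hete and 12.16, 12.37, 5.93 and 8.9 TPM in homo. Homo replicates 1, 2 and 4 lay above every hete library and homo replicate 3 lay among them (log2 fold change 0.51, SE 0.21; unadjusted p = 0.0351, adjusted p = 0.789 by limma-trend). Without homo replicate 2 it was 0.39. Oas1a had 4.81, 5.9, 3.37 and 4.74 TPM in hete and 5.69, 7.22, 5.09 and 4.97 TPM in homo (log2 fold change 0.25, SE 0.16), and its transcript matches that of Oas1g with 97.6% identity over 1861 bases. Oas1g itself, no member, had 2.12, 2.1, 1.43 and 1.57 TPM in hete and 3.29, 3.71, 2.03 and 3.72 TPM in homo (0.56 with SE 0.18; adjusted p = 0.687 by limma-trend), so the split of reads between the 2 genes bears on both values. Oas2 stood at 1.45 ± 0.523 and 1.62 ± 0.267 TPM (SD, n = 4 per group).

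Ifih1, the gene of the sensor MDA5, had 3.7, 3.68, 4.37 and 4.71 TPM in hete and 5.25, 4.84, 4.53 and 5.16 TPM in homo. Only homo replicate 3 lay within the hete range, and homo replicate 2 was not the highest (log2 fold change 0.22 with SE 0.11; adjusted p = 0.870 by limma-trend; 0.23 without homo replicate 2). Mavs had 29.42, 31.65, 30.61 and 41.21 TPM in hete and 30.58, 28.64, 28.58 and 27.2 TPM in homo, the most negative log2 fold change of the members at -0.19 (with SE 0.10 and adjusted p = 0.870 by limma-trend). Without hete replicate 4, its highest library, that value was -0.09. Zbp1, a sensor of left-handed nucleic acid that can start necroptosis, had 0.48, 3.71, 1.09 and 1.63 TPM in hete and 2.66, 2.2, 2.96 and 2 TPM in homo, so hete held both the lowest and the highest value (0.47, SE 0.31). Adar stood at 21.1 ± 1.72 TPM in hete and 22.3 ± 1.64 TPM in homo (SD, n = 4 per group; 0.08, SE 0.08). Eif2ak2, the kinase PKR that halts translation on double-stranded RNA, stood at 16.5 ± 2.01 and 17.9 ± 1.49 TPM (0.11, SE 0.10). Trim25, a ubiquitin ligase of RNA sensing, had 9.4, 9.9, 10.34 and 10.42 TPM in hete and 11.14, 10.8, 10.38 and 11.6 TPM in homo, with only homo replicate 3 inside the hete range (0.12, SE 0.08).

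Ifih1, Mavs, Zbp1 and B2m lie on chromosome 2, as does Dnajc17, and their log2 fold changes were 0.22, -0.19, 0.47 and 0.14. A part of shared linkage in these values was not tested.

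Of the 4 members below the filter, 2 had all homo values above all hete values, Rsad2 and Oas3. Of the 10805 genes with a mean of 0.1 to under 1 TPM, a range set after these values were seen, 0.963% did. Rsad2, the antiviral enzyme viperin, had 0.69, 0.94, 0.66 and 0.65 TPM in hete and 1.06, 1.32, 1.02 and 1.03 TPM in homo. Oas3 had 0.06, 0.09, 0.05 and 0.04 TPM in hete and 0.18, 0.15, 0.16 and 0.18 TPM in homo, levels whose precision is unknown because TPM keeps no depth. Oasl1, which restrains the translation of IRF7, had 0.23, 0.48, 0.21 and 0.05 TPM in hete and 1.1, 1.66, 0.47 and 0.42 TPM in homo, with homo replicates 3 and 4 just under hete replicate 2. When all genes above 0 were tested, the log2 fold changes on the log2(TPM + 1) scale were 0.28 for Rsad2 (SE 0.13), 0.14 for Oas3 (SE 0.07) and 0.58 for Oasl1 (SE 0.22), each with an adjusted p of 0.816 by limma-trend. Mx1 stood at 0.13 (SE 0.30) in that fit.

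Oas3 and Oasl1 are also the 2 members that appear in the authors' deposited table of gene ontology enrichment, whose study set holds 142 genes. The authors' deposited table places them in 21 of its 387 terms, of which 0 have an adjusted p under 0.05. Of these terms the one with the smallest p in the authors' deposited table is negative regulation of viral genome replication, with 4 genes, a p of 9.46e-05 and an adjusted p of 0.0869. How these values were computed, and against which background, is not stated.

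Members with other roles gave small differences. The ADP-ribosylation complex of Parp9 and its ubiquitin ligase partner Dtx3l, together with Parp14, had log2 fold changes of 0.05, -0.02 and 0.04 (SE 0.12, 0.11 and 0.11). The guanylate-binding proteins, GTPases that attack the membranes around intracellular microbes, had 0.02 for Gbp2, -0.09 for Gbp3 and 0.01 for Gbp7 (SE 0.13, 0.16 and 0.09). Gbp7 shares 637 identical bases with the pseudogene Gm43802. In antigen presentation, the immunoproteasome subunits Psmb8 and Psmb9 and the peptide transporter Tap1 had -0.09, 0.02 and -0.0022 (SE 0.19, 0.24 and 0.11). B2m had 661.26, 600.9, 546.51 and 644.68 TPM in hete and 731.77, 641.33, 683.72 and 651.64 TPM in homo (0.14 with SE 0.08; adjusted p = 0.870 by limma-trend), with only homo replicates 1 and 3 above the hete range. Several of these intervals are wide, so the values do not show that the groups were equal.

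**Figure D5:**
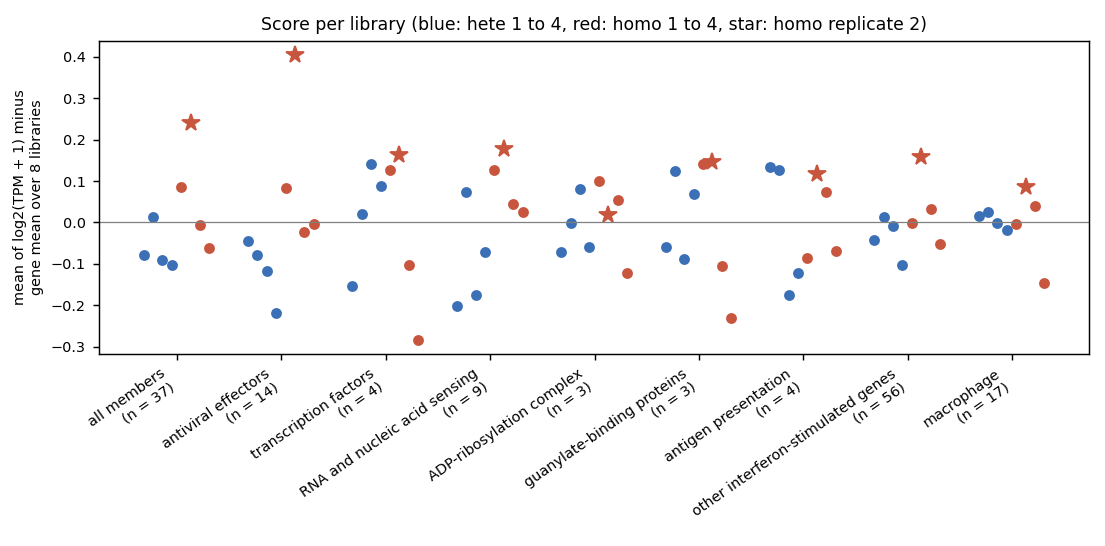
Score per library (mean of log2(TPM + 1) minus the gene's mean over 8 libraries) for all tested members, each role, other interferon-stimulated genes and macrophage markers; blue is hete 1 to 4, red is homo 1 to 4 from left to right, and the star is homo replicate 2. The star reaches 0.40 for antiviral effectors and 0.16 for other interferon-stimulated genes, where it is the highest of the 8 libraries.

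Genes of the pathway outside the members gave the setting. Of 21 listed interferon genes, 19 were listed at 0 in all 8 libraries, among them Ifnb1, the interferon alpha genes, Ifng, Ifnl2 and Ifnl3. The other two were Ifnz at 0.11 to 0.61 TPM and Ifnk, above 0 in 2 libraries. Receptors and proximal signalling genes were all detected: of 14, 9 were higher and 5 lower in homo, with a median log2 fold change of 0.10 and none called. The receptor chain Ifnar1 (0.12, SE 0.08) and the kinase Jak1 (0.12, SE 0.07) were measured at 39.9 to 60.62 TPM. The smallest p there belonged to the feedback inhibitor Socs3 (0.14, SE 0.09).

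Of 68 other interferon-stimulated genes, 56 were tested; 37 were higher and 19 lower in homo, 0 were called, and the median log2 fold change was 0.08. Homo replicate 2 was the highest library for 16 of the 56, beside 8.02% of all tested genes. It lay above the mean of the other homo libraries for 42 of the 56, or 75%, beside 42.8% of all tested genes. This list shares no gene with the members, and its score was 0.16 in homo replicate 2, -0.00092, 0.03 and -0.05 in the other homo libraries and -0.10 to 0.01 in hete. The genes with the smallest p were Oas1g, described above, and Plscr2, at -0.26 (SE 0.09). The 22 tested other nucleic acid sensors and adaptors split into 10 higher and 12 lower (median -0.02), with the endosomal RNA receptor Tlr3 at -0.30 (SE 0.12) and the adaptor Myd88 at -0.24 (SE 0.10). Other class I presentation genes split 8 to 8 (median 0.0036), with the proteasome activator Psme2 at -0.53 (SE 0.23) and Calr, a chaperone of class I assembly, at 0.17 (SE 0.09). Of 7 tested class II genes, 5 were higher and 2 lower (median 0.07), with H2-Eb1 at -0.35 (SE 0.31) and H2-DMb1 at -0.11 (SE 0.11). No gene of these lists had an adjusted p under 0.05.

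Medians of members with and without the promoter patterns are given for all 4 patterns searched. With the looser response element, 14 tested members had a median log2 fold change of 0.18, and the 15 tested members whose windows lack it had 0.02. The difference of homo replicate 2 from the other homo libraries had a median of 0.26 in the members with it and 0.15 in those without. The 9 members without a window, among them Mx2, which had the largest log2 fold change, are in neither set. The stricter form gave the widest gap of the 4 patterns, which were chosen after the data were seen. For the 11 tested members whose window holds it the median log2 fold change was 0.23, and for the 18 tested members whose windows lack it 0.03. The difference of homo replicate 2 from the other homo libraries had a median of 0.34 in the first set and 0.10 in the second. Among genes that are no members, 86 tested genes hold it and had medians of 0.04 and -0.01, while the 11588 tested genes without it, the 18 members included, had 0.02 and -0.03. For the other two patterns the median log2 fold changes with and without were 0.096 and 0.095 in 1 and 0.08 and 0.11 in the other, and homo replicate 2 was less far above the other homo libraries in members that hold the pattern (0.19 against 0.22, and 0.15 against 0.23). These medians are a description of chosen genes and were not tested.

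Protein-coding genes, without those named Gm or Rik (left out after the data were seen), were ranked in each library by their excess over the next library. Among those by which homo replicate 2 exceeded the highest of the other libraries most, Isg15 ranked 5 and Ifit1 ranked 8. The first 2 were Npas3, a transcription factor at 27.52 TPM with at most 2.91 TPM elsewhere, and Nfkbiz, a nuclear inhibitor of NF-kappa-B signalling at 30.81 TPM with at most 6.1 TPM elsewhere. The Y-linked Ddx3y ranked 6, between Isg15 and Ifit1. No member was among the first 10 of any other library, but Oas1b, of the other interferon-stimulated genes, ranked 8 in hete replicate 3, at 7.07 TPM with at most 3.94 TPM elsewhere.

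Markers of cells that respond to or produce interferon are given beside these values. The 17 tested macrophage markers summed to 531 to 558 TPM in hete and 503 to 604 TPM in homo, with homo replicate 2 highest at 604 TPM and homo replicate 3 next at 575 TPM. Of them, 5 were higher and 12 lower in homo (median -0.03), with Aif1 at -0.30 (SE 0.11) and Fcer1g at 0.30 (SE 0.16). Siglech, the defining marker of plasmacytoid dendritic cells, was lowest in homo replicate 2 at 1.55 TPM and ran from 2.32 to 3.61 TPM in the other libraries; that list summed to 44.5 to 53.2 TPM in hete and 44.0 to 51.4 TPM in homo. T and NK cell markers summed to 5.05 to 5.9 TPM in hete and 4.27 to 8.52 TPM in homo, with the lowest sum and Cd3e listed at 0 in homo replicate 2. Of the 2 tested markers of that list, 1 was highest in homo replicate 2. Granulocyte markers summed to 6.69 to 9.14 TPM in hete and 12.5 to 60.2 TPM in homo, with no overlap. In homo replicates 1 to 4 the sums were 60.2, 15.1, 18.8 and 12.5 TPM. The member scores of the same libraries were 0.09, 0.24, -0.0050 and -0.06. B cell markers summed to 55.4 to 60.3 TPM in hete and 61.9 to 77.7 TPM in homo, a sum that is mostly Ebf1, which other cells also express. Endothelial markers overlapped at 345 to 427 and 344 to 426 TPM. No marker of these lists was at 0 in all 8 libraries. The part of these cells in the members' values was not tested.

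Defining markers of the labelled tissue were present, with 13 of 14 hair cell and 12 of 12 supporting cell markers tested. Hair cell markers summed to 513 to 694 TPM in hete and 418 to 499.8 TPM in homo without overlap, and supporting cell markers to 7110 to 8280 and 7976 to 8704 TPM. The gap between the hair cell sums does not hold for each marker. Of the 13 tested hair cell markers, 11 had a log2 fold change below 0 and 2 above. Only 1 had every homo value below every hete value. The hair cell score overlapped between the groups, since homo replicate 2, at -0.012, lay above hete replicate 1, at -0.013. Between 28159 and 28969 genes were above 0 in each library.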

How the data were processed

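Polyadenylated RNA of the basilar membrane was sequenced from 4 hete and 4 homo libraries, grouped by sample title; per the labels' protocols, a stranded mRNA kit was used. The authors deposited TPM per gene and library, and every column adds up to 1000000. Per the submitters' processing notes, the tools were fastp, HISAT2, StringTie, RSEM and DESeq2 and the build GRCm39; no version or role is given. The authors' deposited gene ontology table lists, for each term, its p-value before and after adjustment. The splicing summary names no genes and was not used. TPM keeps no record of depth, so depth is unknown and no counting interval was computed.

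The test was limma-trend (limma 3.58.1, R 4.3.3, robust eBayes, genotype only) on log2(TPM + 1) of the 17811 genes whose mean reached 1 TPM, with Benjamini-Hochberg adjustment over all of them. Fold changes on this scale understate changes of low genes. Changes of 1.5-fold in TPM + 1, which for low genes are larger changes in TPM, were planted in a simulated homo versus hete set of 17811 genes. Of the 67 genes that received this change, 53.7% were called. For 2-fold it was 80.6% of 67 genes, and for 4-fold 95.5% of 66. The simulation had 158 calls, 5 of them false, where the real data had 2 called genes. An adjusted p depends on how many genes change, and no share is given for low genes alone. These shares therefore do not give the power for the members. Near-identical copies were searched with blastn 2.17.0 among GENCODE M21 transcripts, reporting matches of at least 95% identity over 200 bases. Chromosomes come from the same annotation. Promoter motifs were searched on both strands of the RefSeq windows. Results that need 1 gene of the pathway are not reported here.

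The members, lists and tests were chosen with earlier results of these data known. The text names, in each role, up to 4 members with the smallest unadjusted p and the most abundant one, the 2 genes with the smallest p in other pathway lists, and genes of single libraries; others are said to be chosen after their values were seen. The alternatives were a pseudocount of 0.1, no filter, at least 5 TPM in 4 libraries, quantile normalization, rescaling over protein-coding nuclear genes, the replicate number as a block, non-robust eBayes, and each library left out, with the tested genes kept. A comparison among libraries with no Y-linked gene above 1 TPM was added after seeing the data, without a test. Python 3.11.15 and matplotlib 3.10.9 made the figures.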

Additional observations from a re-analysis of the deposited data

Results flagged for a closer look

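Among 84 sets of 4 libraries examined (41 members and the member score, in each group), 8 had a library far from the other 3; chance flags about 1 in 20 such sets. In 3 of them it was homo replicate 2: Ifit1 at 4.92 TPM against 2.15 to 2.41 in the other homo libraries, Mx1 at 2.31 TPM against 0.49 to 0.6, and Rsad2 at 1.32 TPM against 1.02 to 1.06. Ifitm3 in homo replicate 4 stood at 165.91 TPM against 153.86 to 155.11. In hete, Mx2 in replicate 3 stood at 3.1 TPM against 0.83 to 0.93, and Rsad2 in replicate 2 at 0.94 TPM against 0.65 to 0.69. Hete replicate 4 was high for Ifit1, at 2.47 TPM against 1.99 to 2.05, and for Parp14, at 2.94 TPM against 2.69 to 2.72.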

How the results depend on the processing

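No member was called under any of the 15 alternatives, with a smallest adjusted p of 0.411, so these say nothing of stability. Of the 37 tested members, 19 were higher and 5 lower under every one that tested them, and 13 changed sign. The median log2 fold change of members ran from 0.04 (without homo replicate 2) to 0.13 (without homo replicate 4) over the left-out libraries, and was 0.12 with a pseudocount of 0.1 and 0.12 with no filter. Among the libraries without Y-linked expression, an alternative chosen after seeing the data, it was 0.09. The number of called genes went from 2 to 1 with no filter and from 1 to 5 over the left-out libraries. Dnajc17 ran from -0.014 to 0.24 over them. The members that changed sign ran, over the left-out libraries, from -0.094 to 0.15 for Irf7, -0.054 to 0.28 for Usp18, -0.0078 to 0.14 for Stat2, -0.064 to 0.29 for Trim30a, -0.047 to 0.20 for Oas2, -2.9e-05 to 0.13 for Parp9, -0.067 to 0.052 for Dtx3l, -0.039 to 0.092 for Gbp2, -0.20 to 0.018 for Gbp3, -0.016 to 0.041 for Gbp7, -0.25 to 0.031 for Psmb8, -0.15 to 0.18 for Psmb9 and -0.055 to 0.064 for Tap1. With quantile normalization Gbp7 was at -0.0060. The cause of these differences was not tested.

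The replicate numbers are not said to pair the libraries. Deviations of same-numbered libraries correlated at -0.08, -0.03, 0.05 and 0.01, and 1 of the 4 hete libraries correlated best with its own number. With the replicate number as a block, 1 gene and 0 members were called, and the median of the members stayed at 0.09. Depth is unknown, so the precision of members under 1 TPM cannot be stated.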
